A study of Mus musculus with 6 samples.

Results

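Collagen genes encode the alpha chains of collagens, and were taken here as every gene on the array whose symbol is Col, a number, the letter a and a number. The annotation of the array gave 42 such genes, each with 1 probe set, out of 19505 named genes. By textbook class, 11 of them encode fibrillar chains, 6 the basement membrane chains of collagen IV, and 25 chains of other kinds. The chains Col7a1 and Col12a1 are not analysed here.

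Collagens are matrix proteins whose alpha chains wind around each other in a helix. Fibrillar collagens such as I, III and V build the fibrils of skin and tendon, and collagen IV forms the sheet-like network of basement membranes. Beaded filament collagen VI links cells to the matrix around them, and smaller classes sit on fibrils or in the cell membrane. In skin most fibrillar collagen is made by dermal fibroblasts, while melanocytes rest on the basement membrane above them.

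Transcripts were read on mouse Clariom S arrays from Affymetrix, with 2 arrays for each of 3 groups, all from lines of melan-a, an immortalized melanocyte line labelled with the C57BL/6J genotype and kept without treatment in RPMI with 10% serum. The group mKitK641E(T), called T below, carries titles with c-kit(K641E)C3#, the group mKitK641E(PT), called PT, carries titles with hi exp, and the labels describe both as melanoma transformed by this Kit. K641E is an activating substitution in Kit, a receptor tyrosine kinase of melanocytes. The group mVec was transduced with the control vector CD516B2 and is described as melanocytes. What T, PT, C3# and hi exp stand for is not stated in the labels. Each group is a single line, and the labels do not say whether its arrays come from separate cultures, so the p-values cover how arrays of 1 line vary and say nothing of variation among lines.

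The deposited values are log2 expression values, and a value counts as above background when it exceeds the 95th percentile of the 5222 negative controls of its array. These limits lay between 8.74 and 9.16, and between 29.0% and 32.6% of the 22206 gene probe sets of an array were above them. Kit itself was under the limit on all 6 arrays, with values from 3.84 to 5.18, and so gives no check of the labels. Of 12 melanocyte markers, 10 were at background on every array, among them Tyr, Dct, Pmel, Mlana and Sox10. Only Gpnmb, in all groups, and Mitf, in T, were above background on both arrays of a group. With so few arrays, every value below has limited precision.

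Collagen transcripts were mostly at background in all 3 groups. Of the 42 genes, 35 were under the limit on all 6 arrays. Above it on both arrays were Col1a2 and Col3a1 in T, none in PT, where Col1a2 was above it on 1 array, and Col1a1, Col3a1, Col4a2, Col6a1 and Col6a2 in mVec. Genes that passed through mVec alone had to be higher there, so their direction is no result of that count. Over all probe sets, 35.3% were above the limit on both arrays of at least 1 group. A gene under the limit is not shown to be unexpressed. The limits lay well above the array medians, which ran from 5.64 to 5.89. Some genes under them on every array were still called, such as Col5a1 below. These statements also depend on where the limit is set. At the 99th percentile of the negative controls 2 collagen genes passed, Col1a1 and Col3a1, and at the 90th percentile 8 passed, with Col6a3 and Col16a1 added.

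Each difference was tested with limma across all gene probe sets, and a gene is called at a Benjamini-Hochberg adjusted p under 0.05. Against mVec, 2 collagen genes were called higher and 11 lower in T, which is 31.0% of them, and 32.4% of all probe sets were called in that comparison. In PT, 3 were called higher and 11 lower, or 33.3% of them, against 35.9% of all probe sets. The share of collagen genes called was therefore near that of all probe sets. Lower calls made up 26.2% of the collagen genes in either line, where 15.5% of all probe sets were called lower in T and 18.0% in PT. The same 11 genes were lower in both lines, but the comparisons share the mVec arrays. Counting only whether arrays of the groups overlap, 9 collagen genes lay wholly above and 18 wholly below mVec in T, where 31.6% and 30.0% of all probe sets did so, and 7 lay above and 15 below in PT, against 36.2% and 28.7% of all. The median log2 difference of the 42 genes was -0.21 in T (0.01 over all probe sets) and -0.11 in PT (0.08 over all). Centring each array on its median put the collagen median at -0.03 in T and turned it to 0.07 in PT, with all-gene medians of 0.20 and 0.27. The share of calls that were higher, over all probe sets, was 52.3% in T and 49.9% in PT, and 62.3% and 60.3% after centring.

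**Figure D1:**
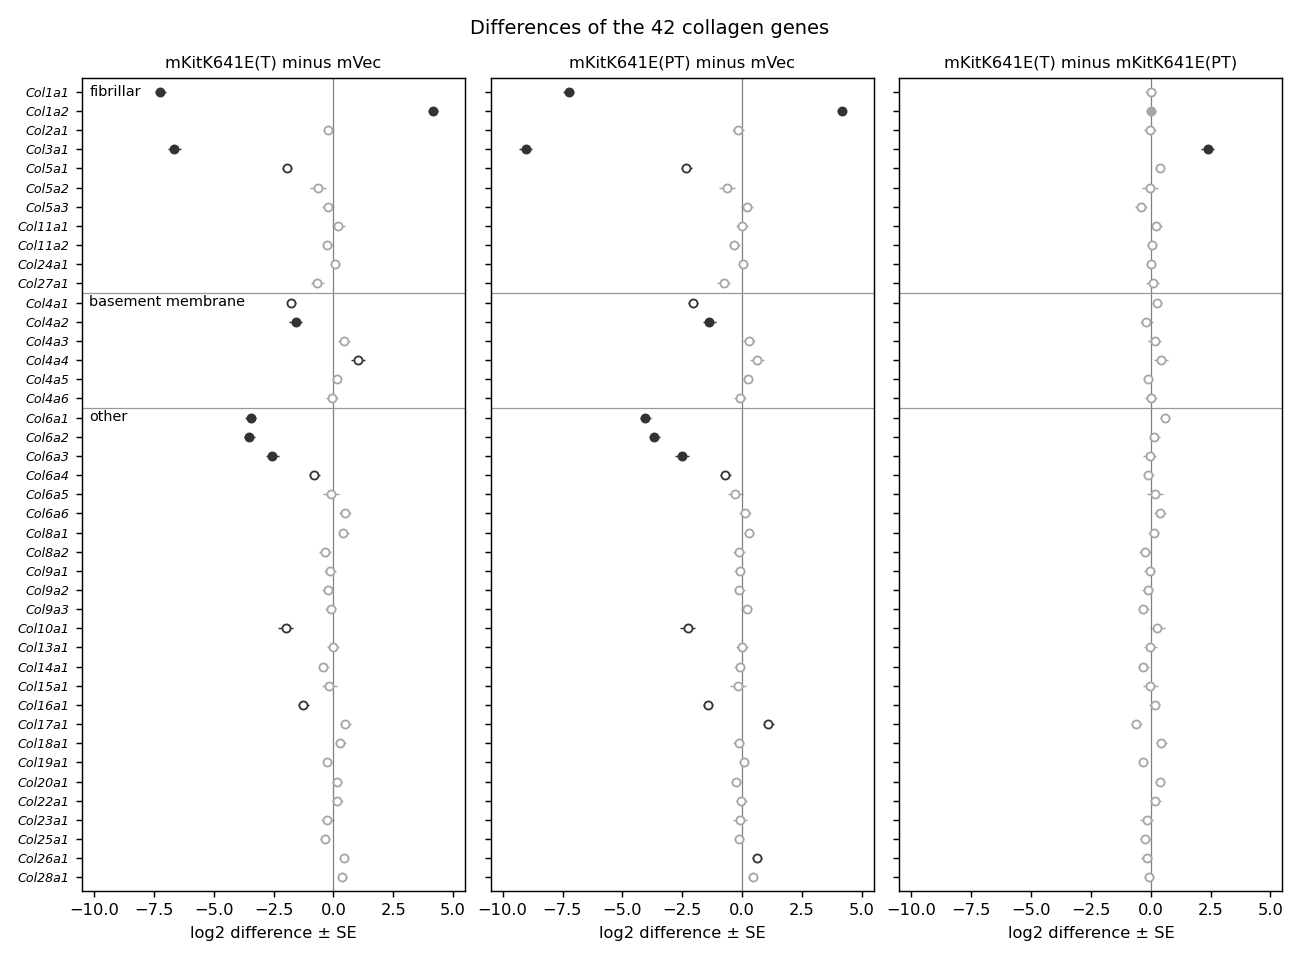
Log2 difference with the standard error of the limma fit (horizontal axis) for each of the 42 collagen genes (rows) in 3 comparisons. Dark points are called at an adjusted p under 0.05 and grey points are not; open circles mark genes at background in both groups compared. Col1a1, Col3a1, Col6a1, Col6a2 and Col6a3 lie far left of 0 in both comparisons with mVec, Col1a2 far right, and Col3a1 alone is called between T and PT.

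Among the fibrillar collagens, the chains of collagen I moved in opposite directions. Col1a1, the alpha1 chain of collagen I, had log2 values of 7.65 and 8.16 in T and 7.88 and 7.92 in PT, against 15.08 and 15.19 in mVec. Both Kit lines were under the background limit and both mVec arrays far above it. The difference was -7.23 ± 0.23 in T (limma adjusted p = 3.98e-08) and -7.23 ± 0.23 in PT (adjusted p = 2.47e-08), each with its standard error. Where a group is at background its fold is a lower bound, taken against the limit, so that Col1a1 was lower by at least 78.8-fold in T and by at least 69.6-fold in PT. As this is bulk RNA, fewer cells that make a transcript and less of it per cell cannot be told apart.

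Col1a2, the alpha2 chain that joins alpha1 chains in collagen I, went the other way. Its values were 9.23 and 9.22 in T and 9.12 and 9.33 in PT, against 5.06 and 5.08 in mVec. The Kit lines lay just at the limit, above it on both T arrays and on 1 PT array, and mVec lay well under it. The difference was 4.16 ± 0.20 in T (limma adjusted p = 3.88e-07) and 4.15 ± 0.20 in PT (adjusted p = 2.75e-07), with no overlap of the arrays. Because mVec was at background and the Kit lines close to it, the bound on the fold is small, at least 1.17-fold higher in either line, and with the limit at the 99th percentile no fold can be given.

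Col3a1, whose product forms collagen III alone and shares fibrils with collagen I, had values of 9.25 and 9.05 in T and 6.43 and 7.12 in PT, against 15.60 and 16.01 in mVec. It was far above background in mVec, just above it in T and under it in PT. It was lower by 101-fold in T (-6.66 ± 0.27, limma adjusted p = 1.53e-07) and by at least 111-fold in PT (-9.03 ± 0.27, adjusted p = 2.07e-08). The 101-fold counts T as measured. With the limit at the 99th percentile (12.34 and 12.15 on the T arrays) T was at background, and its fold would be a smaller lower bound.

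The upstream sequences of Col1a2 and Col3a1 are shown because these fibrillar genes moved in opposite directions, and that of Col6a1, described below, as a further gene that was lower. The 250 bases before the annotated start come from RefSeq on GRCm38.p6, where 34 of the 42 genes had an entry. Capitals mark matches, on either strand, to the CCAAT box, to the Sp1-type motif GGGCGG, to the TATA-box letters TATAAA or to the AP-1-type motif TGANTCA, none of which overlap one another in these windows. Col1a2 lies at chr6:4505368-4505617 (plus strand), Col3a1 at chr1:45311288-45311537 (plus strand) and Col6a1 at chr10:76726045-76726294 (minus strand).
Col1a2: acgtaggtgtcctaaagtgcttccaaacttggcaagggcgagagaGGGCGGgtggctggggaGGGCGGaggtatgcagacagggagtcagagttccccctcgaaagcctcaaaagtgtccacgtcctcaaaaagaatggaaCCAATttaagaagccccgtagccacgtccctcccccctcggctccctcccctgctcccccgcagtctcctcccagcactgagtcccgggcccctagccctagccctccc
Col3a1: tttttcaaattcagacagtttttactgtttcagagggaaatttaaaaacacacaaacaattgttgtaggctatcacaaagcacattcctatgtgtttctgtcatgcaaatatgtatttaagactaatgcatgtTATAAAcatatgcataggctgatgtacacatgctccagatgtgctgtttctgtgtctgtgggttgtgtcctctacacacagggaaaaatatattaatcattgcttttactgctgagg
Col6a1: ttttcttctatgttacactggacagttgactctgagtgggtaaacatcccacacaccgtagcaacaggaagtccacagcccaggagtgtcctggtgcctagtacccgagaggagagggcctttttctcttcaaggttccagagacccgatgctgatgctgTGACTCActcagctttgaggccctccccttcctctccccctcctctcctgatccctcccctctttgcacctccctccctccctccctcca

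The Col1a2 window holds 1 CCAAT, 109 bases before the start, and 2 copies of GGGCGG, at 205 and 188 bases. Its GC content is 62%, that of Col3a1 35.2% and that of Col6a1, which was also lower, 56%. The Col3a1 window holds 1 TATAAA, 117 bases before the start. The Col6a1 window holds 1 TGANTCA, 90 bases before the start. Of all 32851 windows, 33.8% hold the CCAAT letters, 32.7% the Sp1-type motif, 12.4% the TATA-box letters and 6.75% the AP-1-type motif. Of the 37 windows of collagen genes, 12 hold the CCAAT letters, 21 the Sp1-type motif, 5 the TATA-box letters and 1 the AP-1-type motif. A match describes these letters and is not evidence of a bound factor.

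The collagen V chains, which start the assembly of collagen I fibrils, were at background throughout. Col5a1 had values of 5.21 and 5.58 in T and 5.09 and 4.94 in PT, against 7.46 and 7.22 in mVec. It was called lower in T (-1.95 ± 0.22, limma adjusted p = 8.74e-05) and in PT (-2.33 ± 0.22, adjusted p = 1.89e-05), with no fold given because all groups were at background. Col5a2, which neighbours Col3a1 on chromosome 1, was not called (-0.67 ± 0.33 in T and -0.63 ± 0.33 in PT), but it was called lower without mVec replicate 2 (-1.14 and -1.11, adjusted p = 0.0346 and 0.0348). In all, 3 of the 11 fibrillar genes were called lower and 1 higher in each Kit line, with medians of -0.26 in T and -0.32 in PT. That is 36.4% of the class, near the 32.4% of all probe sets called in T and 35.9% in PT. The other fibrillar genes, Col2a1, Col5a3, Col11a1, Col11a2, Col24a1 and Col27a1, were at background and not called. Of these, Col27a1 (-0.76 in PT, adjusted p = 0.0559) was called lower in PT under quantile normalization and without PT replicate 1.

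**Figure D2:**
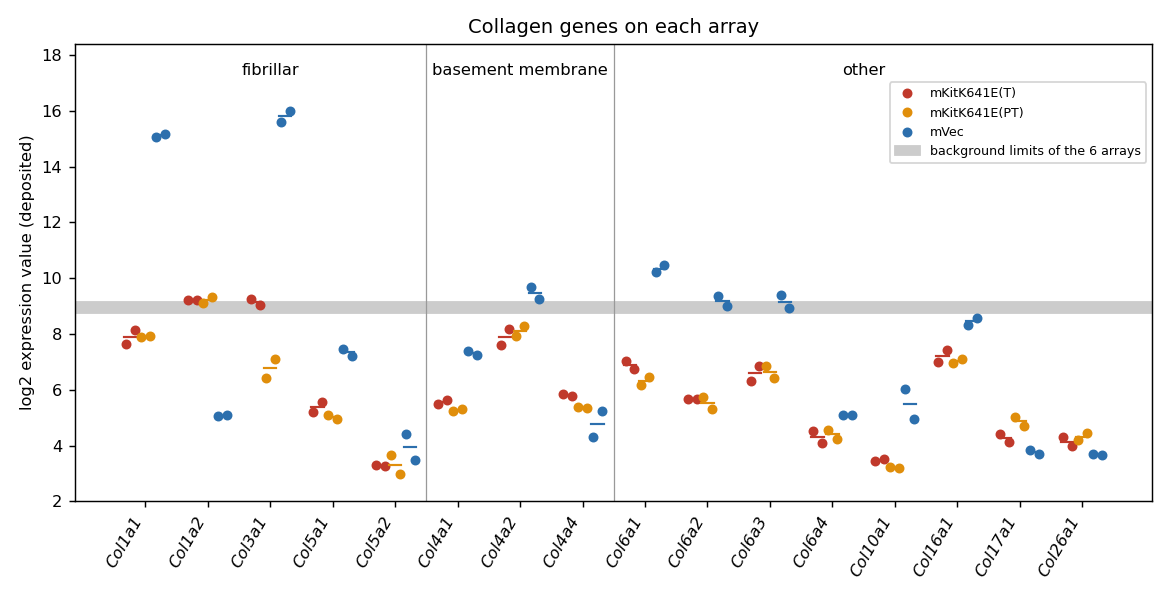
Deposited log2 expression values (vertical axis) of the 16 collagen genes picked by the naming rule given with the processing, for T, PT and mVec. Each array is 1 point, and a line marks the mean of the 2 arrays. The grey band spans the background limits of the 6 arrays, from 8.74 to 9.16. Col1a1 and Col3a1 stand far above the band in mVec, and Col1a2 reaches the band in the Kit lines alone.

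In the basement membrane class, the chains Col4a1 and Col4a2, which assemble into the common collagen IV network, were lower in both Kit lines. Col4a2 had values of 7.62 and 8.19 in T and 7.92 and 8.29 in PT, against 9.70 and 9.26 in mVec, where it was above background on both arrays. Against mVec it was lower by at least 1.57-fold in T (-1.57 ± 0.27, limma adjusted p = 0.00127) and by at least 1.38-fold in PT (-1.38 ± 0.27, adjusted p = 0.00251). Col4a1 had values of 5.5 and 5.62 in T and 5.23 and 5.32 in PT, against 7.39 and 7.25 in mVec. It was under the limit in every group and called lower in T (-1.76 ± 0.20, adjusted p = 8.7e-05) and PT (-2.04 ± 0.20, adjusted p = 2.34e-05).

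These genes lie head to head on chromosome 8, and the stretch around their starts is shown because both were lower. In RefSeq the first 22 bases of each transcript overlap those of the other on opposite strands, given in capitals on the plus strand of GRCm38.p6 at chr8:11312801-11312830.
Col4a1 and Col4a2: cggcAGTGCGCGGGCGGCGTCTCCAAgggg

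The other collagen IV genes, which form networks of restricted tissues such as the kidney glomerulus, were at background. Of these, Col4a4 was called higher in T (1.04 ± 0.29, limma adjusted p = 0.0204), with values of 5.86 and 5.78 in T and 5.40 and 5.36 in PT, against 4.30 and 5.25 in mVec. That call was lost without either T array (adjusted p = 0.0789 without replicate 1 and 0.0696 without replicate 2) and without mVec replicate 1, where the difference was 0.57 (adjusted p = 0.183). In PT it was not called (0.60 ± 0.29), but it was without mVec replicate 2 (1.08, adjusted p = 0.0145) and after median centring. In all, 2 of 6 basement membrane genes were called lower and 1 higher in T, with a median of 0.03. Over all probe sets, 15.5% were called lower and 16.9% higher in T, and 18.0% lower in PT. Of the called genes, Col4a1 and Col4a4 were at background in all groups. In PT 2 were called lower and 0 higher by limma, also at an unadjusted p under 0.05, with a median of 0.08, and 17.9% of all probe sets were called higher there. With the multiplexins Col15a1 and Col18a1 counted in this class, the median was 0.03 in T and -0.11 in PT. Col4a3, which lies beside Col4a4, and the neighbouring X-linked genes Col4a5 and Col4a6 were not called.

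Of the remaining classes, collagen VI held the genes that were above background. Col6a1 had values of 7.03 and 6.76 in T and 6.16 and 6.45 in PT, against 10.24 and 10.46 in mVec. Against mVec it was lower by at least 2.86-fold in T (-3.45 ± 0.22, limma adjusted p = 2.08e-06) and by at least 2.52-fold in PT (-4.04 ± 0.22, adjusted p = 5.48e-07). Its chromosome 10 neighbour Col6a2, the alpha2 chain of the same molecule, was likewise higher in mVec than in both Kit lines, whose arrays overlapped. Col6a2 had values of 5.66 and 5.68 in T and 5.75 and 5.30 in PT, against 9.37 and 9.01 in mVec, and was lower by at least 1.28-fold in T (-3.52 ± 0.23, adjusted p = 2.69e-06) and by at least 1.13-fold in PT (-3.66 ± 0.23, adjusted p = 1.44e-06). Col6a3, the large chain that completes collagen VI, had values of 6.32 and 6.87 in T and 6.86 and 6.43 in PT, against 9.39 and 8.92 in mVec, with 1 mVec array above the limit. Against mVec it was lower by at least 1.25-fold in T (-2.56 ± 0.27, adjusted p = 5.83e-05) and by at least 1.10-fold in PT (-2.51 ± 0.27, adjusted p = 5.01e-05). None of the arrays of the Kit lines overlapped those of mVec for these 3 chains.

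Col6a4, one of a run of collagen VI genes on chromosome 9, was at background and called lower by a smaller margin (-0.79 ± 0.23 in T, limma adjusted p = 0.0245, and -0.69 ± 0.23 in PT, adjusted p = 0.0412). Leaving out T replicate 2 (adjusted p = 0.146) or either mVec array (0.101 and 0.110) removed the call in T, and leaving out any single PT or mVec array removed that in PT (0.0541 to 0.206). Centring removed both calls (0.0636 in T and 0.106 in PT), and a variance trend that in PT (0.0541). The neighbours Col6a5 and Col6a6 were not called. With Col6a4 counted, 4 of the 6 collagen VI genes were called lower in each line. Over all probe sets, 15.5% were called lower in T and 18.0% in PT. Without T replicate 1, Col6a6 (0.50 in T) was called higher in T.

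Further called genes of the other classes were at background in all groups. Col16a1, which decorates fibrils, had values of 7.0 and 7.41 in T and 6.95 and 7.12 in PT, against 8.33 and 8.58 in mVec, and was called lower in T (-1.25 ± 0.23, limma adjusted p = 0.00178) and PT (-1.42 ± 0.23, adjusted p = 0.000658). Col10a1, the network collagen of growth plate cartilage, was called lower in T (-2.0 ± 0.32, adjusted p = 0.000757) and PT (-2.27 ± 0.32, adjusted p = 0.000267), with means of 3.48 in T, 3.21 in PT and 5.48 in mVec. Its mVec arrays were 6.02 and 4.94, a wider gap than in the Kit lines.

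A few were called higher in PT. Col17a1, a transmembrane collagen of hemidesmosomes, was called higher (1.10 ± 0.22, limma adjusted p = 0.00296), with values of 4.42 and 4.13 in T and 5.04 and 4.71 in PT, against 3.86 and 3.69 in mVec. In T its difference was 0.50 ± 0.22 and was not called, though it was with centred arrays (0.69, adjusted p = 0.0361), and T minus PT (-0.60 ± 0.22, adjusted p = 0.146) did not pass. Col26a1 was called in PT at the edge of the threshold (0.62 ± 0.22, adjusted p = 0.0493), and that call was lost without any single PT or mVec array (0.0676 to 0.218) and under quantile normalization (0.0968). Of the 25 other collagens, 6 were lower and 0 higher in T by limma (1 higher at an unadjusted p under 0.05), where 16.9% of all probe sets were called higher, and 6 were lower and 2 higher in PT. The lower genes are 24.0% of this class in each line, where 15.5% of all probe sets were called lower in T and 18.0% in PT. The medians of the class were -0.18 in T and -0.11 in PT. The 27 genes that were at background and called in no comparison had values from 2.97 to 7.64, with differences from mVec between -0.67 and 0.50 in T and between -0.76 and 0.44 in PT.

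Between the Kit lines, Col3a1 was the only collagen gene called. It was higher in T than in PT by 2.38 ± 0.27 (limma adjusted p = 0.00176), a fold of at least 1.10 because PT was at background, and 8.36% of all probe sets were called between these lines, with 5.67% higher and 2.70% lower in T. The T and PT arrays did not overlap in 8 collagen genes that were higher and 5 that were lower in T, where 23.8% and 26.3% of all probe sets separated in that way. For Col3a1 they did not overlap, and the difference stayed called without each array in turn, between 2.03 and 2.72. The other 41 genes had differences from -0.60 (Col17a1) to 0.59 (Col6a1), 2 of them at an unadjusted p under 0.05, and the lowest adjusted p was 0.146. Among probe sets above background in a group, which are fewer, Col6a1 was called as well (adjusted p = 0.0478). Col1a1 and Col1a2 had equal means in T and PT to the second decimal or nearly so, 7.90 in T and 7.90 in PT for Col1a1, and 9.23 in T and 9.22 in PT for Col1a2.

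Newly made collagen chains are hydroxylated, glycosylated and folded in the endoplasmic reticulum, then trimmed and crosslinked outside the cell. Of 48 listed genes of this pathway and of collagen receptors, 42 were measured, and 8 were called higher and 21 lower in T, or 69.0% against 32.4% of all probe sets, and 8 higher and 25 lower in PT, or 78.6% against 35.9%. Of these genes 30 were above background on both arrays of a group, a larger share than among the collagen genes. With only probe sets above background in the fit, 86.7% of these 30 were called in T, against 72.4% of all such probe sets, and 96.7% in PT, against 76.1%. Genes that passed through mVec alone, such as Lox, or through the Kit lines alone, such as P4ha2, had to be higher there. These shares are thus set in part by the filter, and no conclusion is drawn from them. Beside the counts per list below, 15.5% of all probe sets were called lower in T and 18.0% in PT, and 16.9% and 17.9% higher.

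Among 13 hydroxylases and their partners, 6 were lower and 2 higher in T, and 7 lower and 2 higher in PT. Plod1, a lysyl hydroxylase, had values of 9.61 and 10.15 in T and 7.0 and 8.59 in PT, against 13.13 and 13.14 in mVec. It was lower by 9.56-fold in T (-3.26 ± 0.43, limma adjusted p = 0.000246) and by at least 17.4-fold in PT (-5.34 ± 0.43, adjusted p = 6.61e-06). Plod2, which hydroxylates lysines of the chain ends, was 3.36-fold lower in T (-1.75 ± 0.20) and 8.45-fold lower in PT (-3.08 ± 0.20), with means of 10.84 in T, 9.51 in PT and 12.59 in mVec. The prolyl 4-hydroxylase subunits split. P4ha1 was 2.15-fold lower in T (-1.10 ± 0.20) and 2.86-fold lower in PT (-1.52 ± 0.20). P4ha2 was higher by at least 2.2-fold in T (2.70 ± 0.24) and by at least 2.60-fold in PT (2.94 ± 0.24), being at background in mVec, with means of 10.14 in T, 10.38 in PT and 7.44 in mVec. P3h2, a prolyl 3-hydroxylase, was 2.54-fold higher in T and 3.05-fold higher in PT.

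In folding and export, 5 of 10 genes were lower and 3 higher in T, and 6 lower and 2 higher in PT. Serpinh1, the collagen chaperone HSP47, was bright in every group and not called, with values of 14.39 and 14.82 in T and 13.88 and 14.19 in PT, against 14.49 and 14.80 in mVec. Its difference in T, -0.04 ± 0.24, changes sign with centring. Its difference in PT, -0.61 ± 0.24 (limma adjusted p = 0.0813), passed with the replicate block (adjusted p = 0.0409), under quantile normalization (0.0267), with a variance trend (0.0147) and among brighter probe sets (0.0297 and 0.0421). Fkbp14, a prolyl isomerase of the endoplasmic reticulum, had values of 8.69 and 9.01 in T and 7.15 and 6.64 in PT, against 12.53 and 12.30 in mVec, with 1 T array above the limit. Its difference was -3.56 ± 0.25 in T, whose mean lies at the limit, and -5.52 ± 0.25 in PT, which was lower by at least 10.6-fold. Pdia3, a disulfide isomerase, was lower in PT (-1.42 ± 0.23), and its call in T (-0.85 ± 0.23, adjusted p = 0.016) was lost without T replicate 1 (0.0717) or mVec replicate 1 (0.132). Mia2 and Klhl12, which help load large cargo such as procollagen into transport carriers, were higher, Mia2 by 1.28 ± 0.21 in T and 1.29 ± 0.21 in PT and Klhl12 by 1.25 ± 0.20 in T and 1.31 ± 0.20 in PT. Other genes of export, named after their values were seen, were lower. Mia3, a cargo receptor of procollagen, had -0.72 in T (adjusted p = 0.0191) and -0.77 in PT (adjusted p = 0.012), and Sec23a, a coat subunit of transport vesicles, -0.71 in T (adjusted p = 0.0265) and -1.04 in PT (adjusted p = 0.003). Both calls in T were lost without T replicate 2, without either mVec array and with centring (0.0726 and 0.0814), that of Sec23a also without T replicate 1 (0.0543), and that of Mia3 in PT without PT replicate 2 (0.0582) or mVec replicate 1 (0.0931). Sec24d, another coat subunit, was lower in PT (-0.95, adjusted p = 0.00401) and not called in T (0.10). The third higher gene in T, Hspa5, a general chaperone named after its values were seen, had 0.68 ± 0.20 (adjusted p = 0.0246), against 0.48 in PT (adjusted p = 0.0903), which was called under 5 alternatives (0.00106 to 0.0415), and T minus PT was 0.20 (adjusted p = 0.62). In T it lost its call without T replicate 1 (0.0869) or either mVec array (0.112 and 0.118).

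Outside the cell, most genes for the removal of the propeptides of fibrillar collagens were lower. Of 7 genes, 5 were lower and 1 higher in each Kit line, and the protease Adamts3 was at background and not called. Tll1, a tolloid protease, had values of 4.16 and 4.54 in T and 4.72 and 3.92 in PT, against 11.03 and 11.40 in mVec, and was lower by at least 5.22-fold in T (-6.87 ± 0.29, limma adjusted p = 2.05e-07) and by at least 4.61-fold in PT (-6.90 ± 0.29, adjusted p = 1.33e-07). Its relatives Bmp1 (at least 4.94-fold lower in T and 4.37-fold in PT) and Tll2 (at least 1.65-fold lower in T and 1.46-fold in PT) were above background in mVec alone. Pcolce, which enhances these proteases, was 3.90-fold lower in T (-1.96 ± 0.25) and 13.5-fold lower in PT (-3.75 ± 0.25). The single higher gene was Pcolce2, its homologue, named after its values were seen, 2.96-fold higher in T (1.57 ± 0.20) and 5.97-fold higher in PT (2.58 ± 0.20).

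Crosslinking enzymes also moved in both directions. Lox, lysyl oxidase, had values of 6.92 and 6.63 in T and 4.45 and 4.54 in PT, against 13.65 and 13.68 in mVec. Against mVec it was lower by at least 28.4-fold in T (-6.89 ± 0.21, limma adjusted p = 3.17e-08) and by at least 25.1-fold in PT (-9.17 ± 0.21, adjusted p = 8.59e-09). Loxl3 was lower by at least 30.8-fold in T and by at least 27.2-fold in PT. Loxl4 was the reverse, with values of 10.14 and 10.37 in T and 10.21 and 10.34 in PT, against 6.50 and 7.17 in mVec, and was higher by at least 2.38-fold in T (3.42 ± 0.26, adjusted p = 5.68e-06) and by at least 2.42-fold in PT (3.44 ± 0.26, adjusted p = 3.85e-06). Of the 4 measured genes, 2 were lower and 1 higher in T, and 3 lower and 1 higher in PT.

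Of 8 receptors, 3 were lower and 1 higher in T, and 4 lower and 2 higher in PT. In each line 2 of the lower genes were at background in both groups compared. Another lower gene, Ddr1, was above the limit on 1 mVec array alone. The second higher gene in PT, Gp6 (0.78 ± 0.22), was at background on every array. Both Ddr1 and Gp6 are named after their values were seen. Mrc2, an endocytic receptor that takes up collagen, had values of 10.97 and 11.48 in T and 9.58 and 9.88 in PT, against 6.19 and 6.42 in mVec. Against mVec it was higher by at least 4.67-fold in T (4.92 ± 0.24, limma adjusted p = 4.67e-07) and by at least 1.66-fold in PT (3.43 ± 0.24, adjusted p = 2.79e-06). Ddr2, a receptor tyrosine kinase for fibrillar collagen, was bright in every group and not called (-0.40 ± 0.22 in T and 0.17 ± 0.22 in PT). Itgb1, the common beta chain of collagen-binding integrins, was called in PT (-0.74 ± 0.20, adjusted p = 0.0156) and lost that call without PT replicate 1 (0.0807), without mVec replicate 2 (0.116) and with centring (0.0603). The alpha chains Itga2 and Itga11, named after their values were seen, were at background in all groups, with Itga2 at a mean of 4.31 in T, 5.07 in PT and 8.61 in mVec, while Itga11 averaged 3.80 in T, 3.61 in PT and 7.71 in mVec.

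**Figure D3:**
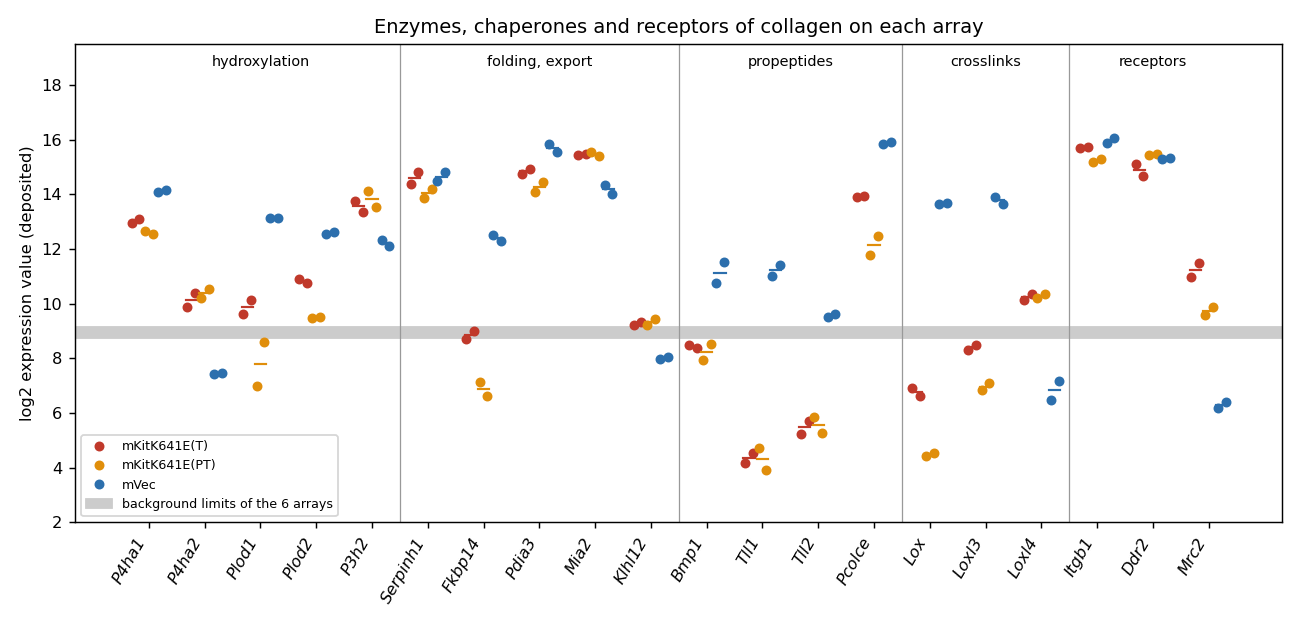
Deposited log2 expression values (vertical axis) of 20 named genes of collagen processing and collagen binding, 1 point per array and a line at the mean of the 2 arrays, for T, PT and mVec, with the background limits of the 6 arrays as a grey band. Lox, Loxl3, Tll1 and Plod1 lie lower in the Kit lines than in mVec, while P4ha2, Loxl4 and Mrc2 lie higher.

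Some fibroblast markers, and single markers of other cell types, were lower in the Kit lines than in mVec. Of 13 fibroblast markers, none of them a collagen, 6 (46.2%) were called lower and 1 higher in T and likewise in PT, where 15.5% of all probe sets were called lower in T and 18.0% in PT. In each line 6 were not called, and the gene called higher was Fbln1 (0.77 in T and 0.78 in PT), at background on every array. On both arrays of the group, 1 marker was above background in T, 1 in PT and 5 in mVec. The log2 of their summed level ran from 12.34 to 12.56 in T and from 11.79 to 12.08 in PT, against 16.12 to 16.23 in mVec. Dcn, a small matrix proteoglycan, averaged 5.46 on the T arrays and 4.92 on the PT arrays, against 13.99 in mVec, Prrx1, a mesenchymal transcription factor, 8.11 on the T arrays and 8.14 on the PT arrays, against 14.26 in mVec, and Fap, a fibroblast surface protease, 6.35 on the T arrays and 4.33 on the PT arrays, against 13.65 in mVec. Other fibroblast markers, among them Thy1, Dpt, Pi16 and Tcf21, were at background on every array. In the smooth muscle list 1 of 6 markers (16.7%) was lower in T, near the share of all probe sets, and 2 in PT. Its summed level ran from 11.56 to 11.58 in T and from 8.74 to 8.95 in PT, against 16.59 to 16.67 in mVec, through Acta2, while Myh11, Cnn1 and Myocd were at background on every array. In the endothelial list, 1 of 7 (14.3%) was lower in each line, Cdh5, and the defining markers Pecam1, Kdr and Tek were at background. The keratinocyte list had 2 of 8 lower in T and 1 in PT and was above background through Itga6 alone, and all 6 leukocyte markers were at background with 0 called against mVec by limma in either line, also at an unadjusted p under 0.05. In the melanocyte list 1 of 12 markers (8.33%) was called lower in each line, Gpnmb (-1.45 in T and -2.42 in PT). Mitf was called higher in each line (1.03 in T and 0.84 in PT), and was at background in PT and mVec. Over all probe sets, 16.9% were called higher in T and 17.9% in PT. The part of all these markers in the collagen differences was not tested.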

How the data were processed

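The deposited table holds, per its values, log2 expression values for 28846 probe sets on 6 Affymetrix Clariom S arrays, used as deposited (array medians 5.64 to 5.89). The authors deposited them with software, background correction, normalization and genome build not given in the sources used here. Control probe sets (6640) were left out, which left 22206 gene probe sets, all tested without a filter on low values. Gene names came from the annotation of the platform, in which 19572 probe sets carry 1 symbol.

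All 6 arrays entered 1 linear model in limma 3.58.1 (R 4.3.3) with a mean per group (3 residual and 6.36 prior degrees of freedom). Two-sided p-values were Benjamini-Hochberg adjusted across every gene probe set within a comparison, and errors are standard errors of the fit. The fit was tested on simulated data. The background limit and the bounds on folds are described with the results. Arrays have no read depth.

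A collagen gene was named with its values when it was above background on both arrays of a group or called in a comparison, with a fixed set of main chains added, and of each pathway list up to 4 called genes above background with the largest difference, plus Serpinh1, P4ha1, Plod2, Lox and Ddr2. The members, classes, lists and the rule were chosen with earlier results of these data known. Alternatives were array centring, quantile normalization, filters, variance models, fits of 2 groups, a replicate block, leaving out each array, a minimum change, another background percentile and another class definition. Figures were drawn with matplotlib 3.10.9.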

Additional observations from a re-analysis of the deposited data

Results flagged for a closer look

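For these results the effects of the Kit lines against mVec differed by the limma test of T minus PT. All compare the same mVec arrays. Of the 42 pathway genes, 9 were called higher and 1 lower in T than in PT, or 23.8%, against 8.36% of all probe sets. With only probe sets above background in the fit, 30.0% of 30 pathway genes were called, near the 31.5% of all such probe sets. Among collagen genes the gene called was Col3a1, whose arrays averaged 9.15 in T and 6.78 in PT (T minus PT 2.38). In processing it was Plod2, with 10.84 in T and 9.51 in PT (1.33), and Plod1, with 9.88 in T and 7.80 in PT (2.08). The Plod1 difference was 1.29 without PT replicate 1 (adjusted p = 0.0712) and 1.81 without T replicate 2 (0.138), and in both it was no longer called. Sec24d had 12.03 in T and 10.98 in PT (1.05), a call lost without T replicate 2 (adjusted p = 0.0791) or either PT array (0.0984 and 0.0569). Fkbp14 had 8.85 in T, with 1 array above the limit, and 6.90 in PT, which was at background (1.96), so no fold is given. Pcolce had 13.92 in T and 12.13 in PT (1.79), while Pcolce2 was lower in T, with 10.75 in T and 11.76 in PT (-1.01). The Pcolce2 call was lost without any single array of T or PT (adjusted p from 0.0515 to 0.0868).

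The crosslinking enzymes Lox, Loxl3 and Loxl1 were under the background limit in both Kit lines. Their called differences therefore have no fold, and the order of the lines is not read from them. Lox had 6.77 in T and 4.49 in PT (2.28), Loxl3 8.41 in T and 6.97 in PT (1.45), and Loxl1 8.48 in T and 6.56 in PT (1.93). Loxl4 was above the limit in both lines and not called between them. The receptor Mrc2 had 11.23 in T and 9.73 in PT (1.5). Mrc2 was no longer called when T replicate 2 (adjusted p = 0.0503) or PT replicate 1 (0.0658) was left out.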

How the results depend on the processing

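Col1a2 as higher and Col1a1, Col3a1, Col4a2, Col6a1 and Col6a2 as lower in both Kit lines held in every alternative run. Against mVec, the median of the 42 genes in T was -0.029 with centred arrays and -0.10 with quantile normalization, and in PT 0.074 with centring. Filters leave fewer genes and keep those that are high in mVec, so their medians are set by the filter: -1.41 in T and -1.40 in PT over 16 genes with a mean over the median of all means, and -3.49 in T and -3.85 in PT over 6 above background. They give 1 higher call in each line, Col1a2, under either filter, and 5 lower calls in each line above background. Centring gave 5 higher calls in PT, with Col4a4 and Col28a1 added. Between T and PT, the filter on background gave 2 higher calls and a median of 0.074. With the limit at the 99th percentile 2 collagen genes were above background. Leaving out an array gave 1 to 2 higher calls in T (Col1a2 with Col4a4, with Col6a6 or alone), a median between -0.21 and -0.025 in PT, and a median between -0.072 and 0.12 for T minus PT. Serpinh1 in T was 0.14 with centring and lay between -0.26 and 0.18 without an array. Sec24d in T was -0.12 with quantile normalization, and Adamts3 in PT 0.00089 with centring.

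Equal replicate numbers deviated together only weakly (r = 0.04 for T and mVec, 0.04 for PT and mVec, 0.08 for T and PT, across genes). The labels do not pair them, and with 2 arrays per group this check cannot show whether they were handled together. With the replicate block, 11 collagen genes were lower and 2 higher in T, and 11 lower and 2 higher in PT, and Col26a1 lost its call (adjusted p = 0.0604). The number of arrays limits precision.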
